A study of Mus musculus with 2 samples.

Results

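Genes with alternative last exons end their transcripts in different places and therefore with different 3′ exons. They were taken here as annotated genes with at least 10 reads in each library in multi-exon models of the Known, NIC or NNC class, and with at least 2 last exons that did not overlap and each held 5% or more of the reads pooled over both libraries. Known models carry an annotated chain of introns, and NIC and NNC are the classes of unannotated chains. Of 4559 genes with the required reads, 262 met this rule (5.75%). Members were thus chosen by their measured read shares, which are given below as a description.

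Long reads were sequenced from total RNA of the gastrocnemius, a large calf muscle, of female mice aged 14 days. The mice were of strain B6CASTF1/J, the F1 cross of C57BL/6 with CAST, with no treatment or allele named, and 2 µg was the starting quantity. The labels give 1 group of 2 libraries, so there was no contrast between conditions. The label of replicate 1 names 3 females, that of replicate 2 names a female without a count, both carry the same donor identifier, and whether animals were pooled is not stated. A p-value below therefore compares the reads of these 2 libraries and holds counting error only, not the spread between animals.

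A transcript ends where the cleavage and polyadenylation machinery cuts the nascent RNA and adds the poly(A) tail, usually downstream of a short signal. An alternative last exon arises either when an exon is not spliced at its 5′ splice site and runs on into the intron, where the RNA is cleaved, or when a separate terminal exon is spliced in and distal exons are left out. Because the stop codon often lies in the last exon, this choice can change the C-terminal end of a protein as well as its 3′ UTR. In striated muscle, the tropomyosin genes and the calcium pump gene Atp2a2 are standard examples.

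The choice is visible in the letters around the point at which the coding sequences part. Of 8 members shown, each line runs 5′ to 3′ along the transcript from the GENCODE M21 transcripts (GRCm38), with the last 15 coding bases shared by both forms in lower case and the coding bases after the parting point in capitals. These members were picked for the roles of their protein forms, after their values were seen.
Tpm3 proximal: ttgatgacctggaagACGAGCTCTATGCCC
Tpm3 distal: ttgatgacctggaagATAAACTGAAGTGCA
Atp2a2 proximal: acctggaacaacccgGTAAAGAGTGTGTGC
Atp2a2 distal: acctggaacaacccgCAATACTGGAGTAA
Cdc42 proximal: tctgccctcacacagAGAGGTCTGAAGAAT
Cdc42 distal: tctgccctcacacagAAAGGCCTAAAGAAT
Lamp2 proximal: gacagtattctacagCCCAGGAGTGTTCGC
Lamp2 distal: gacagtattctacagCTCAAGACTGCAGTG
Qk proximal: ccagtggtgtgttagGTATGGCTTTCCCAA
Qk distal: ccagtggtgtgttagGTGCGGTGGCTACTA
Ghr proximal: aagcatgtgaagaagGAACCAAGTCCAATT
Ghr distal: aagcatgtgaagaagATATCCAGTTTCCAT
Homer1 proximal: gccatttccacatagGTACACATTCAATTC
Homer1 distal: gccatttccacatagTTCAGCAATCAGCAA
Dnajb6 proximal: ccttgacaataaatgGTAAGGAGCACCTGC
Dnajb6 distal: ccttgacaataaatgGTGTGGCCGACGAGA

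In Atp2a2, Homer1 and Dnajb6 the proximal form read straight on from the shared exon into the following intron, and its capitals open with GT, the letters of a 5′ splice site that the distal form used. In the other 5 genes the capitals of both forms came from exons spliced to the same shared exon. The distal Atp2a2 line ends at its stop codon after 14 bases, so that form added only a few codons to the shared protein. In Cdc42 both forms had 191 codons.

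Replicate 1 held 1088160 reads in counted models and replicate 2 held 862044, of which the 262 genes took 14041 (1.29%) and 11352 (1.32%). Averaged over reads, models were 2284 bases long in replicate 1, against 1484 in the other library. Summed markers of skeletal muscle fibres were at 303823 and 224933 CPM, the counts per 1000000 reads of annotated genes, and all 8 had reads in both libraries. Markers of other cell types were far lower, with fibroblast markers at 7918 and 3397 CPM, erythroid markers at 1441 and 1263 CPM and Schwann cell markers at 575 and 2457 CPM. Cardiac markers summed to 7.21 and 2.71 CPM with Nppa at 0, and no marker of any list was among the 262 genes. The part of these differences in last-exon use was not tested.

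Most of the 262 genes had a leading and a minor end. Exactly 2 last exons passed the 5% share in 238 genes, 3 passed in 21 and 4 passed in 3. The less used of the 2 leading last exons held a median of 12.8% of pooled reads (quartiles 7.72% and 23.7%). It held under 10% in 95 genes, 10 to 25% in 107 and 25% or more in 60, of which 22 were at 40% or more. The read depth behind these shares was modest, with 20 to 1609 pooled reads and a median of 53 against 84 in the other 4297 genes, and 40 members had 50 or more reads in each library. The number of members depended on both libraries: by replicate 2 alone 418 genes met the rule, and by replicate 1 alone 531 did, with both the shares and the read minimum then taken from 1 library, and 237 and 222 of the 262 members were among them.

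At the limit of the rule, the genes named are those with the most reads within 1 point of it. Just inside it were Ndufa7 (second last exon at 5.13% of pooled reads), Ndufab1 (5.34%) and Tpm3 (5.83%), and just outside it were Lamtor2 (4.19%), Npm1 (4.49%) and Pcmt1 (4.89%). In all, 28 genes lay between 5 and 6% and 46 between 4 and 5%.

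The distal end led more often than the proximal one. Of the 2 leading last exons, the one farther along the gene held more reads in 175 of 262 genes (66.8%), the proximal one in 86, and 1 gene was even. By library, the distal exon was ahead in 180 genes in replicate 1 and in 167 in replicate 2, and the same exon led in both in 241. The pair was chosen on the pooled reads of these same libraries, so this is a description and no independent check. The ends of the 2 exons were a median of 9072 bases apart in the genome (174 to 396029 bases). The median proximal share was 19.5% of reads in replicate 1 and 24.5% in replicate 2.

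Proximal last exons that overlapped an exon of distal models and separate ones were both common. Whether the ends of these models are sites of cleavage was not tested. In 150 genes (57.3%) the proximal last exon overlapped an exon of distal models, and in 109 (41.6%) it was a separate exon that lay within an intron of distal models. In the remaining 3 genes, among them Ttn and Cmss1, the distal models started downstream of it. A further division of the first class was made after the values were seen. By the leading proximal model, the exon ran past the end of the overlapped exon into the intron in 111 genes. It ended inside an exon of distal models in 27, and in 12 only a minor model overlapped. In 13 genes of the first class the overlapped exon was the first exon of a distal model. There the overlap can be a downstream start, and these genes were not set apart. The distal end held more reads in 77 of the 111 genes with run-on exons and in 67 of the 109 with separate exons. The median share of the less used end was 15.1% with run-on exons, 13.3% with separate exons and 10% where the proximal exon ended inside another exon.

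**Figure D1:**
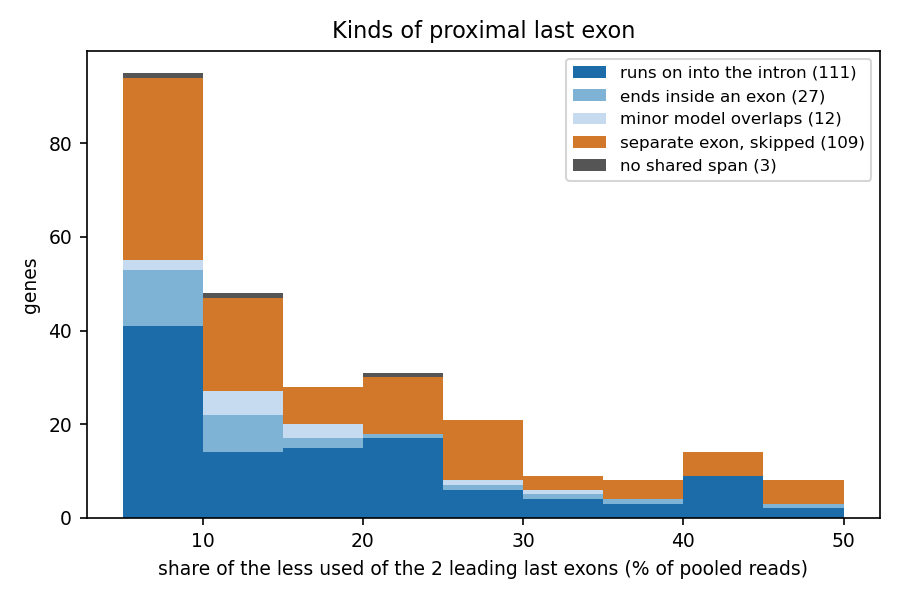
Histogram of the share of pooled reads on the less used of the 2 leading last exons (horizontal axis, percent, bins of 5 points) against the number of genes, stacked by the kind of proximal last exon. The bin from 5 to 10% holds 95 genes, and run-on exons (111 genes) and separate skipped exons (109 genes) occur over the whole range.

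The annotation already held most of these ends. The proximal exon overlapped an annotated last exon of its gene in 234 genes and the distal one in 239. The median number of annotated last exons was 4 in members and 3 in the other genes, and the median gene span was 30846 against 16536 bases. Of the 4559 genes 3507 had 2 or more annotated last exons, and 250 of these (7.13%) were members. Protein-coding genes made up 252 members, and the other 10 were antisense, lincRNA, processed transcript or pseudogene loci. Unannotated chains carried 15.5% of the 10384 proximal reads and 26.2% of the 14534 distal reads.

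By annotation, many alternative ends carried another protein end, though no protein was measured. Both leading exons had a Known model in 180 genes. In 111 of these both leading Known models were coding, each with a stop codon in its own last exon, and the proximal model had fewer codons in 82 of the 111. The median difference was 96 codons in either direction. In another 46 genes the proximal model was annotated as a type other than protein coding and the distal one as coding, against 6 genes the other way round. The proximal model was annotated as a retained intron in 29 of 113 genes where it overlapped an exon of distal models and in 2 of 66 with separate exons. A retained intron stays joined to its exons, so this contrast follows largely from the definitions.

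A poly(A) signal was searched as AATAAA or ATTAAA on the transcript strand in the last 50 bases of the leading Known model, each window counted once. It was present at 164 of 210 distal ends (78.1%) and at 154 of 226 proximal ends (68.1%). In the leading Known models of the other genes it was present in 3392 of 4264 (79.5%). Proximal ends of models annotated as protein coding had it in 135 of 165 cases (81.8%), and those of other model types in 19 of 61 (31.1%). Distal ends had it in 155 of 198 cases with coding models (78.3%) and in 9 of 12 with other types (75%). Of the 180 genes with both ends annotated, 94 had the signal at both, 45 only at the distal end, 27 only at the proximal end and 14 at neither. These are letters at annotated transcript ends, not at the ends of the reads.

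Among members that encode proteins of the contractile apparatus, Tpm3 had the most reads. This gene encodes a tropomyosin, the coiled coil that lies along actin filaments, and makes both a form of slow muscle fibres and shorter cytoskeletal forms. The proximal last exon (chr3:90091931-90092130, mm10) held 483 of 537 reads in replicate 1, a share of 89.9% (Wilson 95% interval 87.1 to 92.2%). In replicate 2 it held 913 of 955, or 95.6% (94.1 to 96.7%), and the mean was 92.8% ± 4.00 (SD, n = 2). The distal last exon (chr3:90099528-90100901) held 9.31% and 3.87%. The proximal form thus led in both libraries. Its leading annotated model had 284 codons, against 248 in the distal one.

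Tpm3 was also the 1 gene called for first and last exons that went together. A long read can show both ends of a transcript, though whether the reads were complete was not tested. First and last exons were compared in 72 genes with 20 or more usable reads in each library, of which 11 were members. A call required an adjusted p under 0.05 in both libraries and the same direction, and 1 of the 72 genes met it (1.39%). Many of the 72 genes, among them Myh4 and Cobl, had few or no usable reads on the less used last exon. Such genes could hardly be called. In replicate 1, 482 of 489 Tpm3 reads from the upstream first exon ended in the proximal last exon, and 0 of 43 from the downstream first exon did. In replicate 2 the counts were 910 of 914 and 2 of 35. Start and end were therefore almost fully tied in both libraries, with adjusted p = 1.52e-54 and 2.41e-52 (Fisher's exact test on reads, two-sided, Benjamini-Hochberg over 72 genes). The other 10 members, among them Kif1b, Pde4dip and Dtna, had adjusted p = 1 in both libraries by the same exact test. Most had few reads on the less used first exon, with 10 and 1 in Kif1b and 2 and 3 in Dtna. The lack of a call there does not show that start and end were independent. With Known models alone Tpm3 was not tested, because its downstream first exon fell from 5.27% to 4.31% of usable reads.

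**Figure D2:**
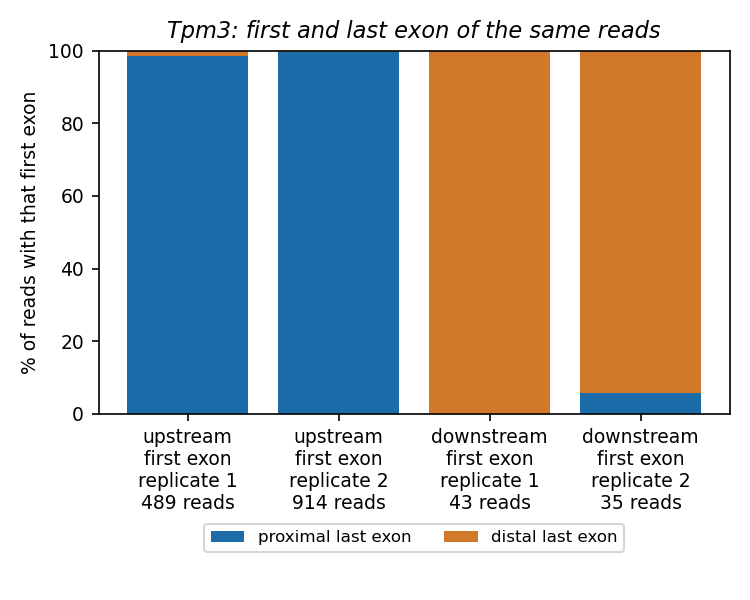
Stacked bars of the percent of Tpm3 reads that end in the proximal or the distal last exon (vertical axis), for each first exon and library, with the number of reads under each bar. Nearly all reads from the upstream first exon end in the proximal last exon, and nearly all from the downstream first exon in the distal one.

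Other sarcomere genes split their reads in smaller numbers. Pdlim7, a PDZ and LIM domain protein of the Z-disc, had its proximal end in 50 of 64 and 67 of 82 reads, which is 79.9% ± 2.53 (SD, n = 2). The leading annotated proximal model had 222 codons and the distal one 457. Of its 117 proximal reads, 83 came from unannotated chains. With ISM models added the proximal share was 97.5% of 1249 reads, which leaves the distal end below the 5% limit. Neb, the gene of the thin-filament protein nebulin, had it in 8 of 59 and 2 of 22 reads, or 6.25% of 208 reads with ISM models added and all 9 reads with Known models only. Ttn, the gene of titin, had 3 last exons past the limit, with the distal one of its leading pair at 41 of 50 and 19 of 21 reads. Its proximal end was read 5 times in replicate 1 and 0 times in replicate 2, and 0 of 21 reads allows a share of up to 14.3%. With ISM models added it held 3.05% of 262 reads. Whether the Neb and Ttn models spanned whole transcripts was not tested, and Neb models averaged 999 bases at the proximal end and 4175 at the distal one. Xirp1, an actin-binding protein of the Xin family, had the proximal end in 27 of 32 and 12 of 22 reads, and its distal last exon was not annotated. None of these 4 genes was called between the libraries by the test given below, though Ttn was with ISM models added. In Neb, Ttn and Xirp1 a library held under 50 reads. At that depth simulated shifts of 30 points were called in only 48.9% of genes.

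Calcium handling contributed Atp2a2 and Trdn. Atp2a2 encodes the calcium pump SERCA2, which returns calcium to the sarcoplasmic reticulum. Its distal last exon (chr5:122453514-122454304), which encodes the end of the muscle form SERCA2a with 998 codons, held 223 of 247 reads in replicate 1 and 69 of 74 in replicate 2. The proximal one (chr5:122456340-122457426), the run-on exon of the broadly expressed form SERCA2b with 1044 codons, held 24 and 5 reads, or 8.24% ± 2.09 (SD, n = 2). SERCA2a ends thus outnumbered SERCA2b ends in both libraries.

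Trdn, the gene of triadin, which anchors calsequestrin at the calcium release channel, was 1 of the 3 genes with 4 last exons. Triadin forms share their N-terminal part and differ at the C-terminal end. Along the gene, the 4 last exons held 34, 34, 31 and 97 of 208 reads in replicate 1 and 28, 39, 52 and 60 of 193 in replicate 2. The farthest one (chr10:33474379-33477472) was the leading end in both libraries, with 46.6% and 31.1%. The third (chr10:33363978-33368265) held 14.9% and 26.9% and overlapped no annotated last exon. This share rested on unannotated chains: it was 5.68% of 2991 reads with ISM models added and 0 of 70 reads with Known models only.

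Several members encode signalling proteins. Ppm1b encodes a magnesium-dependent protein phosphatase. Its proximal end (477 codons) held 80 of 186 and 55 of 106 reads, or 47.4% ± 6.28, and its distal end (390 codons) 48.4% ± 8.38 (SD, n = 2). Araf, a RAF kinase gene, had its proximal end in 46 of 58 and 26 of 40 reads (72.2% ± 10.1, SD, n = 2). That end belongs to a short model of 186 codons, the kinase-less form DA-Raf that antagonizes Ras signalling, against 604 codons for the kinase. Ends of the short form thus led in both libraries. Cdc42, a small GTPase of the actin cytoskeleton, had the proximal end in 16 of 146 and 20 of 96 reads (15.9% ± 6.98, SD, n = 2), so the distal end led. Homer1, a synaptic and muscle scaffold protein, had the short Homer1a end (186 codons against 354) in 11 of 64 and 1 of 17 reads. Dtna, the gene of the dystrophin-associated protein alpha-dystrobrevin, had 3 last exons, with 13, 21 and 6 of 40 reads in replicate 1 and 20, 22 and 1 of 44 in replicate 2. Its middle end was the most used in both.

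Organelle and trafficking genes also differed at their ends. Lamp2 encodes a lysosomal membrane protein whose last exon supplies the membrane-spanning and cytoplasmic end. The proximal last exon held 97 of 136 and 40 of 60 reads (69.0% ± 3.29, SD, n = 2), and both leading models had 415 codons, so protein length was kept while the end differed. Kif1b encodes a kinesin motor with a short form that moves mitochondria and a long form that moves synaptic vesicle precursors. The proximal end, with 1150 codons in its leading Known model, held 159 of 178 and 35 of 43 reads (85.4% ± 5.61, SD, n = 2). Known models carried 5 of these proximal reads, and the other 189 came from unannotated chains. Sh3glb1, a membrane-curving protein of mitochondria and autophagy, had the run-on proximal end in 200 of 264 and 107 of 162 reads (70.9% ± 6.86, SD, n = 2). Tmpo encodes the nuclear LAP2 proteins, of which LAP2 alpha has its own last exon. That proximal end (693 codons against 380) held 11 of 67 and 8 of 45 reads (17.1% ± 0.962, SD, n = 2). Dnajb6, a chaperone gene, had the short-form end (242 codons against 365) in 17 of 92 and 18 of 54 reads (25.9% ± 10.5, SD, n = 2). Proximal ends thus led in Lamp2, Kif1b and Sh3glb1, and distal ends in Tmpo and Dnajb6, in both libraries.

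Some members encode mitochondrial or metabolic proteins. Ndufab1, the mitochondrial acyl carrier protein, had its proximal end in 584 of 635 and 936 of 974 reads (94.0% ± 2.92, SD, n = 2). Both of its last exons are noncoding in the leading Known models, each of which had 156 codons, so only the 3′ UTR differed. Ndufa7, a complex I subunit, had a run-on proximal end in 12 of 355 and 57 of 989 reads, and the leading model of this end was annotated as a retained intron. Gart, an enzyme of purine synthesis, had the short end (433 codons against 1010) in 16 of 72 and 4 of 28 reads. Cox16, an assembly factor of cytochrome c oxidase, split evenly, with the proximal end in 30 of 60 and 49 of 97 reads. Both Cox16 ends overlapped an exon of another gene model on the same strand, Gm20498, so the assignment of these reads is uncertain.

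Papola and Wdr33 act in 3′ end formation, and Qk and Mbnl1 in splicing. Papola, the canonical poly(A) polymerase, had the proximal end in 13 of 40 and 23 of 32 reads, and the leading model of that end had 293 codons against 739. Wdr33, the subunit that binds the poly(A) signal, had the proximal end (312 codons against 1330) in 32 of 41 and 34 of 38 reads. The short end of Wdr33 therefore led in both libraries, while in Papola the distal end led in replicate 1 (25 reads) and the proximal one in replicate 2. Qk, an RNA-binding protein of muscle and glial splicing, had the proximal end (319 codons, QKI-6) in 26 of 123 and 17 of 72 reads and the distal end (341 codons, the nuclear QKI-5) in 96 and 55. The leading Known models behind these codon numbers carried 10 proximal and 40 distal reads. Mbnl1, the muscleblind splicing factor, passed the rule on 3 proximal reads of 57 (2.94% of 102 with ISM models added), and the leading model of that end was annotated as a retained intron.

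By list, 8 of 20 genes named in textbooks for alternative ends that had enough reads were members, among them Atp2a2, Cdc42, Dtna, Pdlim7, Tpm3, Trdn and Ttn, against 5.75% of all genes. Of 10 cleavage and polyadenylation genes with enough reads 2 were members, as were 2 of 12 regulators of terminal exon choice. The list of contraction genes had 6 of 32, that of calcium release and uptake 2 of 21, and that of energy metabolism 0 of 24. Of 59 list genes tested between the libraries by the exact test given below, 0 were called, with 10 at an unadjusted p under 0.05 and 3 at an adjusted p under 0.05 but under 10 points apart. These lists were drawn up with results from these data known.

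**Figure D3:**
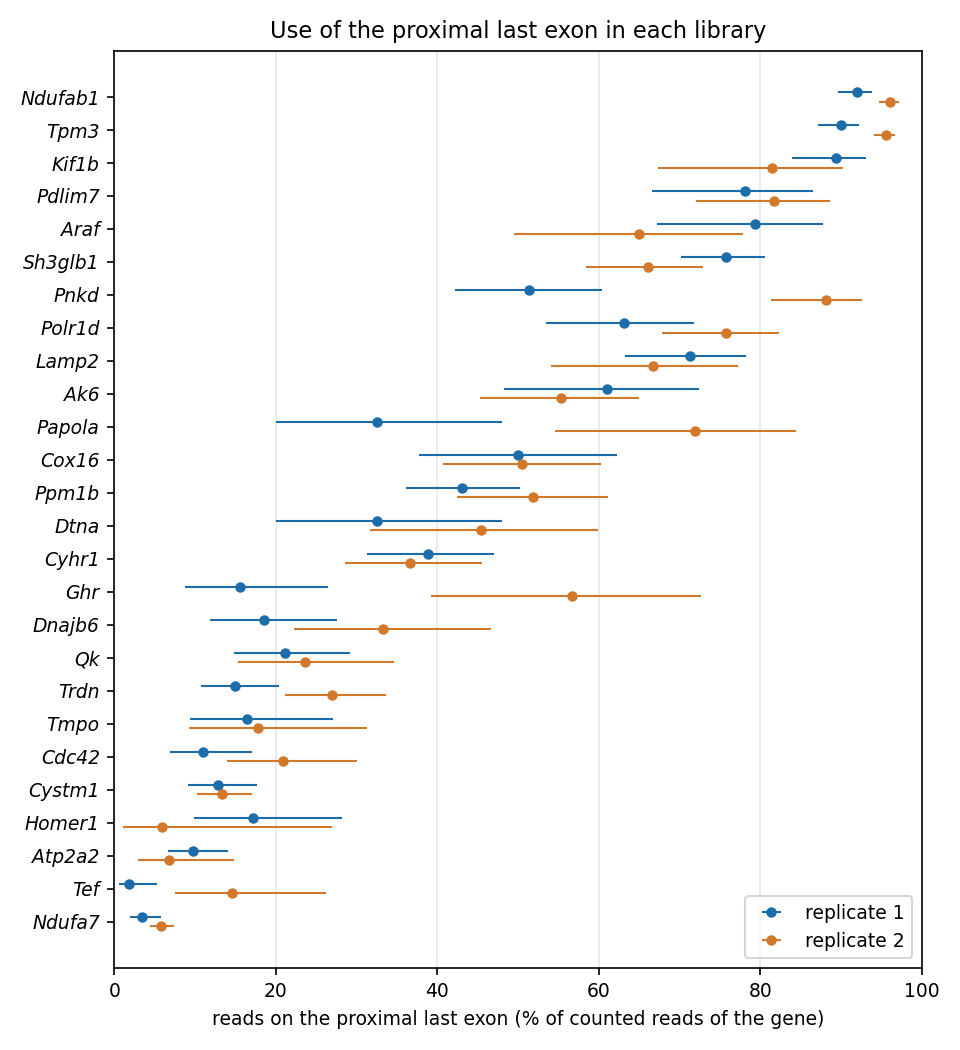
Percent of a gene's counted reads on the proximal last exon (horizontal axis) in replicate 1 (blue) and replicate 2 (orange) for 26 of the genes described, ordered by their mean. Points are the share in a library and bars its Wilson 95% interval; the intervals of the libraries do not overlap in Ghr, Ndufab1, Papola, Pnkd, Tef, Tpm3 and Trdn and overlap in the other genes shown.

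The libraries were then compared read by read. For each of 1118 genes with 2 or more last exons with a read, the leading last exon was set against all others by Fisher's exact test (two-sided, Benjamini-Hochberg over 1118 genes), and genes were called at an adjusted p under 0.05 with a difference of at least 10 percentage points. Of the 1118 genes 7 were called (0.626%), and 6 of these were among the 262 members (2.29%). The rule required a second end at 5% or more of a gene's pooled reads, which the other tested genes lacked. Without such an end a difference of 10 points is hard to reach. The rule itself thus favours calls among members, and the 2 percentages are not comparable. The median absolute difference was 8.21 points in members and 2.79 in all tested genes. At an unadjusted p under 0.05 by the exact test stood 38 of 262 members and 61 of 1118 genes.

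Pnkd had the firmest difference. The gene, mutated in a paroxysmal dyskinesia, makes a short form and long forms with a metallo-beta-lactamase domain. Its proximal end (chr1:74287092-74287454, 142 codons) was read in 58 of 113 reads in replicate 1, a share of 51.3% (Wilson 95% interval 42.2 to 60.3%). In replicate 2 it was read in 111 of 126, or 88.1% (81.3 to 92.7%). The distal end (chr1:74351758-74353686, 360 codons) held 48.7% and 11.9%. The intervals did not overlap, and the adjusted p was 4.05e-07 (Fisher's exact test).

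Ghr, the growth hormone receptor gene, also differed. Its proximal exon (chr15:3327525-3327686) ends the soluble growth hormone binding protein (297 codons) and its distal exon (chr15:3317760-3320722) the membrane receptor (650 codons). The binding protein end was in 10 of 64 reads in replicate 1 (15.6%, 8.71 to 26.4%) and 17 of 30 in replicate 2 (56.7%, 39.2 to 72.6%), with adjusted p = 0.00903 (Fisher's exact test). The receptor end led in replicate 1 and the binding protein end in replicate 2.

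The other 4 called members had at most 21 reads on the proximal end in a library. Tef, a transcription factor of the PAR bZIP family, had the proximal end in 3 of 161 and 8 of 55 reads. Its test set the distal end, at 158 and 44 reads, against all other ends (adjusted p = 0.00600, Fisher's exact test). In replicate 2 these others include a further minor end, so the p-value is not that of the proximal end alone. Bcl7b, a subunit of SWI/SNF chromatin remodelling complexes, had it in 2 of 46 and 16 of 48 reads (adjusted p = 0.0422, exact test). Plcl2, a phospholipase C-like protein without catalytic activity, had it in 0 of 27 reads in replicate 1, which allows a share of up to 11.1%, and in 14 of 32 in replicate 2 (adjusted p = 0.00600, exact test). All 14 of those Plcl2 reads belonged to unannotated chains. Mcrip1, a regulator of MAPK-dependent gene repression, had it in 21 of 87 reads and in 0 of 51, which allows up to 5.88% (adjusted p = 0.00600, exact test). All 21 Mcrip1 reads belonged to unannotated chains that overlapped exons of the neighbouring gene Ppp1r27. In Tef, Bcl7b and Plcl2 the proximal end was more frequent in replicate 2, and in Mcrip1 in replicate 1.

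**Figure D4:**
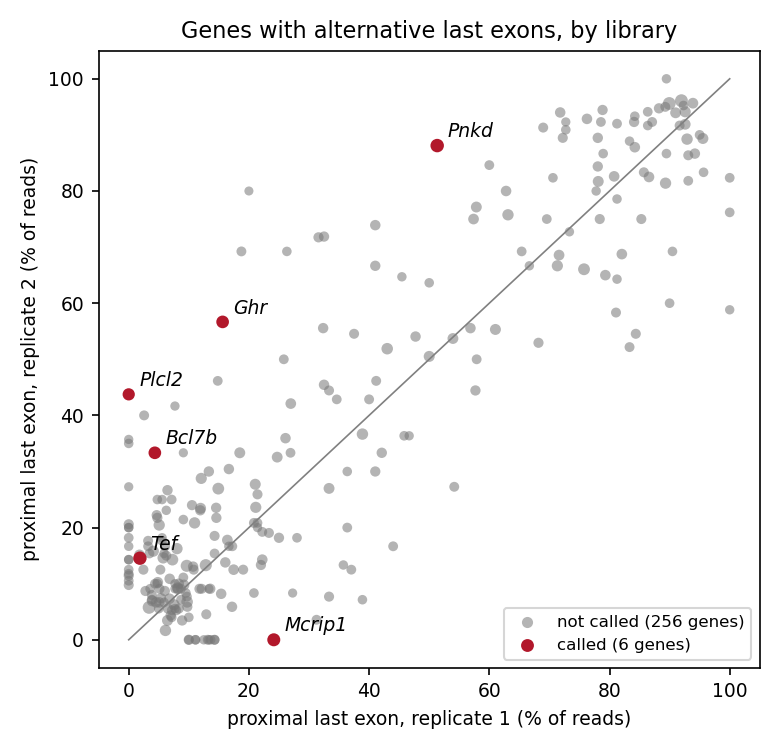
Percent of reads on the proximal last exon in replicate 1 (horizontal) against replicate 2 (vertical) for the 262 genes, with larger points for more pooled reads and the diagonal as equal use. The 6 called genes (red) lie off the diagonal, Pnkd, Ghr, Plcl2, Bcl7b and Tef above it and Mcrip1 below it.

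Papola is an example of a large difference at low depth. Its proximal share was 32.5% in replicate 1 and 71.9% in replicate 2, and the adjusted p was 0.128 by the exact test. Tpm3 and Ndufab1 are the converse, with adjusted p = 0.00600 and 0.0470 by the exact test at differences of only 5.66 and 4.13 points, below the 10 points that a call needed. Across all members the share differed by a median of 8.88 points, and by under 10 points in 141 of 262. The proximal share was higher in replicate 2 in 158 genes, higher in replicate 1 in 100 and equal in 4.

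Model length moved with these differences. Replicate 2 held shorter models over all reads, and the distal end had the longer mean model in 183 of 262 members (69.8%; medians over members 1576 bases proximal and 2471 distal). Of 257 members with unequal shares, the end with the longer models held the larger share in replicate 1 in 176 (68.5%), against 470 of 853 other tested genes (55.1%). The count was 33 of 63 members where the longer mean length was at most 25% above the shorter, 66 of 94 from there to 2 times, and 77 of 100 at 2 times or more. Of the 6 called members 5 had this direction, the exception being Mcrip1. Among the 219 genes with lengths within 25%, 0 were called by Fisher's exact test, with 9 at an unadjusted p under 0.05, and 5 of those 9 were members. Length and library cannot be told apart as the source of the called differences.

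**Figure D5:**
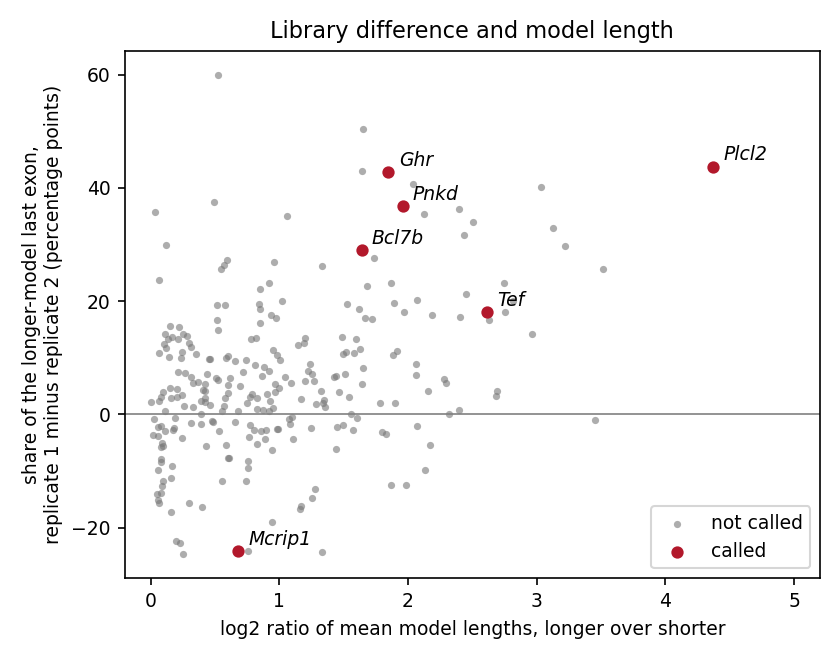
Share of the last exon with the longer models in replicate 1 minus replicate 2 (vertical, percentage points) against the log2 ratio of the mean model lengths of the 2 leading last exons (horizontal) for the 262 genes. Points spread around 0 at small ratios and lie mostly above 0 at larger ones, and 5 of the 6 called genes (red) are above 0.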

How the data were processed

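Per the file headers, the authors' tables hold unnormalized read counts, 1 table per library with a row per transcript model, and their annotation files (mm10, GENCODE M21) give the exons. TALON is named in the annotation attributes. Not given in the sources used here are its version, the read aligner and the platform. Coordinates are those of the authors' files, counted from 1. Last exons were read by strand, overlapping ones of a gene were merged, and the 2 with most pooled reads were ordered along transcription into proximal and distal. Incomplete splice matches (ISM) and single-exon models were left out. CPM leaves out spike-ins. A CPM floor of 3 reads is 2.40 in replicate 1 and 2.71 in replicate 2.

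Shares carry Wilson 95% intervals and groups of libraries a mean and SD; reads are not independent molecules, so intervals, limits of 3 reads for a count of 0 and exact tests (scipy 1.17.1, pandas 2.3.3, numpy 2.4.6, Python 3.11.15) cover counting error only. On simulated data with 200 of 947 genes shifted by 30 points, the library test called 48.9% of 135 genes with under 50 reads in a library, 100% of 65 with more, and 0 of 747 unshifted. The test of first and last exons called 20 of 20 tied genes and 0 of 52 others. How often it calls tied genes with as few reads on a less used exon as many of the 72 genes had was not tested.

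Members, lists and tests were chosen with earlier results of these data known. Named genes are the 10 members with most reads, the called members with 50 reads in each library, members of the textbook list, genes with tied first and last exons, the 6 with most reads of each kind and 3 on each side of the 5% limit. Others (Araf, Bcl7b, Cox16, Dnajb6, Gart, Ghr, Homer1, Kif1b, Lamp2, Mbnl1, Neb, Papola, Plcl2, Qk, Tmpo, Wdr33, Xirp1 and those in the closing section) were chosen after their values were seen. A few genes that the rule takes are not reported here. Alternatives changed the share and read minimum, model classes, grouping, test and library.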

Additional observations from a re-analysis of the deposited data

How the results depend on the processing

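The number of genes moved with the settings. Against 262, it was 167 at a share of 10%, 40 with 50 reads in each library, 1400 with no read minimum and 149 with Known models only (138 of them shared), and 418 to 531 with either library left out. The 7 calls between the libraries became 11 with only the 2 leading last exons compared, 4 with Known models only, 11 with ISM models added, 4 with 50 reads in each library, 12 by adjusted p alone and 0 where model lengths were within 25% (0 of 219, by Fisher's exact test, with 9 at an unadjusted p under 0.05). Bcl7b lost its call with Known models only (adjusted p = 0.0541, exact test) and Plcl2 with ISM models added (0.0888, exact test), the causes of which were not tested. Trdn was called with the 2 leading exons compared and with ISM models added (adjusted p = 0.0358 and 4.43e-22, exact test), Papola with the former (0.0469) and Sh3glb1 and Ttn with the latter (2.52e-08 and 0.00238). The 1 gene with tied first and last exons became 2 with pooled reads (Asb5, no member, was added) and 0 of 12 tested with Known models only, where 2 had an unadjusted p under 0.05 by the exact test in each library. The share of proximal exons that overlap an exon of distal models, 57.3%, was 45.4% when only models with 5% of reads counted and 45.0 to 55.2% with a library left out. The distal end led in 63.7 to 71.8% of members with a library left out, with Known models only and with ISM models added. No paired analysis was possible because the labels give 1 group.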

Other observations

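Some ends of the 262 genes reached exons of other genes on the same strand, at 13 proximal and 22 distal last exons. Ak6, a nuclear adenylate kinase, had its proximal end in 36 of 59 and 52 of 94 reads, and that exon overlapped the exons of Taf9, a subunit of transcription factor TFIID. Vps25, a subunit of the ESCRT-II sorting complex, had 56 of 61 and 80 of 88 reads at a distal end that overlapped exons of Ramp2, a receptor activity-modifying protein. Klf15, a transcription factor of muscle metabolism, had 9 of 100 and 2 of 33 reads at a distal end that overlapped Gm44421 and was not an annotated last exon. Whether such reads belong to the named gene, the neighbour or a joint transcript depends on the authors' assignment of models, which was not tested.

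Further members split their reads as follows, none of them called between the libraries. Dnm2, a GTPase of membrane fission, had its proximal end in 58 of 81 and 24 of 35 reads (70.1% ± 2.15, SD, n = 2). Polr1d, a subunit of RNA polymerases I and III, had it in 65 of 103 and 100 of 132 reads (69.4% ± 8.95, SD, n = 2). Cyhr1 had 3 last exons, with the proximal one of its leading pair at 56 of 144 and 44 of 120 reads (37.8% ± 1.57, SD, n = 2), and with Known models only that end led, at 83.6% of 116 reads. The long noncoding locus Nctc1 had 144 of 155 and 83 of 93 reads at its run-on proximal end, whose leading model was annotated as a retained intron. The antisense locus Atcayos had its distal end in 203 of 220 and 120 of 140 reads. Cystm1 had its proximal end in 30 of 234 and 52 of 391 reads (13.1% ± 0.339, SD, n = 2). Pde4dip, a scaffold protein of the centrosome and Golgi, had its distal end in 438 of 487 and 79 of 91 reads, and all reads of both ends came from unannotated chains.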
